A study of Homo sapiens with 8 samples.

Results

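BiP, encoded by HSPA5, is the HSP70 chaperone of the endoplasmic reticulum (ER), and 10 genes of its chaperone cycle were followed through the RNA-seq libraries of this series. They were chosen by name, but with earlier results of these data known. All 10 were found among the 36715 genes of the count table and passed the filter on low counts. The cells were MDA-MB-231, a human triple-negative breast cancer line, and the question was how the small molecule EMD37, known here only by its code name, changed their transcripts. There were 4 groups with 2 libraries each, marked A and B: EMD37 at 0.5 µM for 12 h, its vehicle DMSO for 12 h, EMD37 at 0.5 µM for 24 h, and DMSO for 24 h. All groups were the same unmodified line in serum-containing medium, and the labels did not say whether A and B were separate cultures, so every p-value below reflects the spread of these libraries only, which may be technical.

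BiP binds unfolded stretches of proteins entering the ER and releases them through rounds of ATP binding and hydrolysis. J proteins (DNAJB9, DNAJB11, DNAJC3 and DNAJC10) bring substrates to BiP and speed its ATP hydrolysis, and the exchange factors HYOU1 and SIL1 take out the ADP so that the substrate leaves. HSP90B1 is the HSP90 of the ER lumen, SDF2L1 forms complexes with ER J proteins, and HSPA13 is a second HSP70 of the ER that lacks the substrate-binding domain. When unfolded protein gathers, the sensors ATF6, IRE1 (ERN1) and PERK (EIF2AK3) raise transcription of many ER chaperones, in part through promoter elements in which a CCAAT box stands near the letters CCACG.

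The promoters of the members are shown because that promoter element was first described in the genes for BiP and its relatives. All 10 genes matched a RefSeq promoter of 300 bases on GRCh38.p14, from 250 bases before to 50 bases from the transcription start, counted here as position 0. Exact letters were searched on both strands: the ER stress element ERSE (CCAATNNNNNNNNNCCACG), ERSE-II (ATTGG, any 1 base, then CCACG) and the unfolded protein response element UPRE (TGACGTGG). Of 35116 promoters of this length, 0.0769% held ERSE, 0.0541% held ERSE-II and 0.729% held UPRE, while the parts alone were common, with CCACG in 38.1% and CCAAT in 34.6%. The 4 members with an ERSE or ERSE-II match are given first, then DNAJB9 and SIL1, which had none of the 3 longer motifs. Capitals mark the fixed letters of the matches, and the sequences run 5′ to 3′ on the strand of the gene.
HSPA5: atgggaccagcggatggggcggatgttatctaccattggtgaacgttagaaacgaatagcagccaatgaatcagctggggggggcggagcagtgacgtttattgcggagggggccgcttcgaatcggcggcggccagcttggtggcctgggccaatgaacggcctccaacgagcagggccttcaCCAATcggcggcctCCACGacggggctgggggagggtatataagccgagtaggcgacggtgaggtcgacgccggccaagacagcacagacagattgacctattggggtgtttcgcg
HSP90B1: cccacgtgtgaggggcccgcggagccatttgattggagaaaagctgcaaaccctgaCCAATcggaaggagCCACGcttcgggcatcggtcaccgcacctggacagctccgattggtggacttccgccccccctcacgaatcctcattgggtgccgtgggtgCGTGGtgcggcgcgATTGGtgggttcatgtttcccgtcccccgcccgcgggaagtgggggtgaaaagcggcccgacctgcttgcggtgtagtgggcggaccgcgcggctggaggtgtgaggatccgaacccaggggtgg
HYOU1: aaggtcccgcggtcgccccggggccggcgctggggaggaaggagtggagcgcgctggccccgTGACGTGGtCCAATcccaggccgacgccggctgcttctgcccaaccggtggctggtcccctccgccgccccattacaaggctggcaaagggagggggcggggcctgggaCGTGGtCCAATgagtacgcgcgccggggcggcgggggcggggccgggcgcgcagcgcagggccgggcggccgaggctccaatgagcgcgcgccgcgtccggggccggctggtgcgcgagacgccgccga
SDF2L1: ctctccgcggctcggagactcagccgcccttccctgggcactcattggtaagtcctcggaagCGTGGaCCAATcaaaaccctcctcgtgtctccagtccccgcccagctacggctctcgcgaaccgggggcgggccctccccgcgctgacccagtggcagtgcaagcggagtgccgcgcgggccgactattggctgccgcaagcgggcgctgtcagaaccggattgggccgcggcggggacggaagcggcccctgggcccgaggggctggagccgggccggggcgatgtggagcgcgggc
DNAJB9: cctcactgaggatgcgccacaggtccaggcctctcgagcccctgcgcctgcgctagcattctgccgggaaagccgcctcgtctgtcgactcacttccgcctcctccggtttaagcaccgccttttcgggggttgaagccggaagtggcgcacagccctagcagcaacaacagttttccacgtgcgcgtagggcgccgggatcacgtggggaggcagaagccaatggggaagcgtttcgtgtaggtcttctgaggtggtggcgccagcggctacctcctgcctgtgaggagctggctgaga
SIL1: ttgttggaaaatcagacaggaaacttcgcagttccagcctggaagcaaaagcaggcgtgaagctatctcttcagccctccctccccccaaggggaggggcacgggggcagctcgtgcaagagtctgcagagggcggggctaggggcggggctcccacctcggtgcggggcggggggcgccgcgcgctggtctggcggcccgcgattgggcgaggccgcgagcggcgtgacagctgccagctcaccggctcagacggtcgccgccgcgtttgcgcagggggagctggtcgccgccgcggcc

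The HSPA5 sequence (chr9:125241294-125241593, minus strand) held 1 ERSE match, from -66 to -48. HSP90B1 (chr12:103930160-103930459, plus strand) held 2, from -194 to -176 and, on the opposite strand, from -89 to -71. HYOU1 (chr11:119057156-119057455, minus strand) held ERSE-II matches from -185 to -175 and from -79 to -69, both on the opposite strand, and a UPRE match from -188 to -181 that overlapped the first of them. SDF2L1 (chr22:21642052-21642351, plus strand) held 1 ERSE-II match from -188 to -178, on the opposite strand. The DNAJC10 promoter held a UPRE match from -125 to -118, on the opposite strand. No exact match to any of the 3 was found for HSPA13, DNAJB11 and DNAJC3, nor in the printed sequences of DNAJB9 (chr7:108569624-108569923, plus strand) and SIL1 (chr5:139198319-139198618, minus strand). A match is a match of letters in this window and says nothing of binding. Near matches were not searched, so a promoter may hold further elements of these kinds that differ in some letters.

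**Figure D1:**
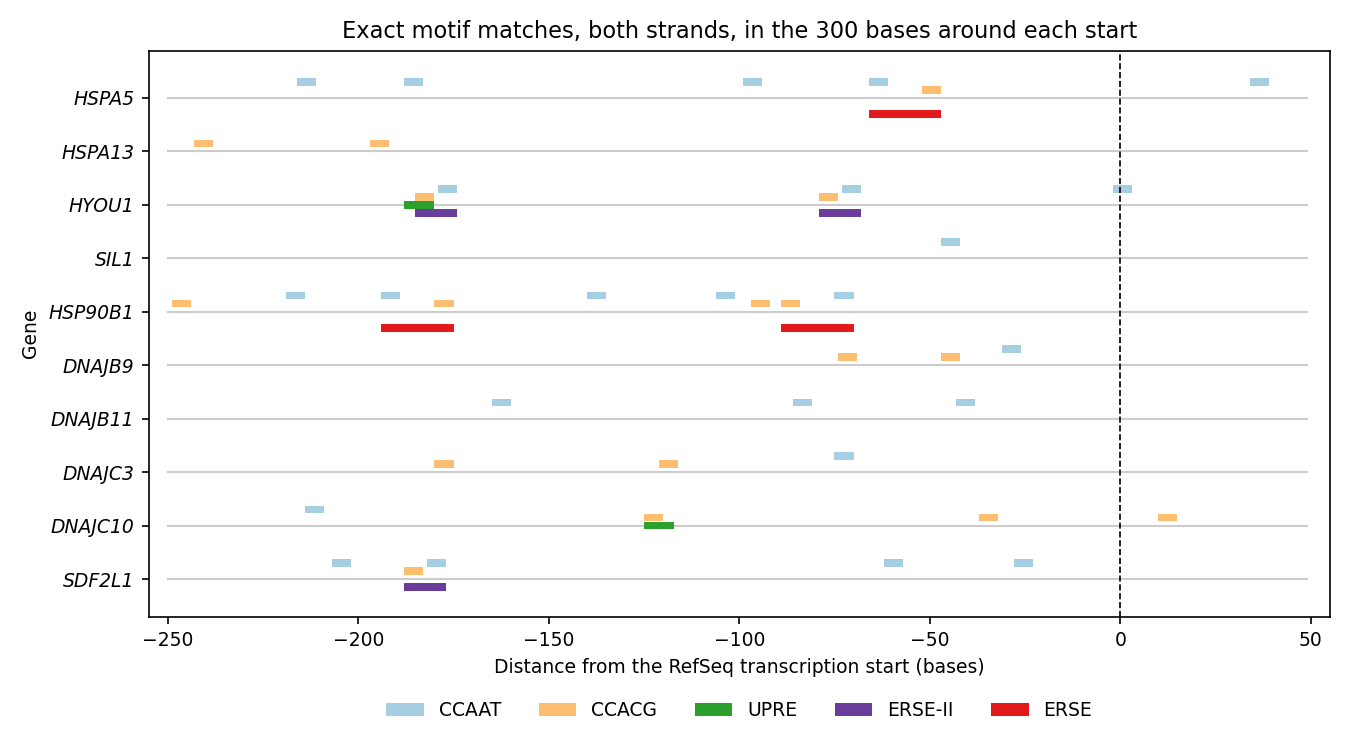
Exact motif matches in the 10 RefSeq promoters, plotted against the distance in bases from the transcription start (dashed line at 0), with 1 row per gene and 1 colour per motif. ERSE or ERSE-II matches lie upstream of the start in HSPA5, HYOU1, HSP90B1 and SDF2L1, and the other rows hold neither. The DNAJC10 row holds a UPRE match.

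The libraries held 8994977 to 11437813 counted reads, and log2 CPM of the 2 libraries of a group correlated at 0.988 to 0.992 across genes. Levels are given as CPM, a gene's reads per 1000000 reads of a library whose size was adjusted with TMM factors, and calls as the adjusted p of edgeR's quasi-likelihood test over 14850 genes, with a threshold of 0.05. Of the mesenchymal markers of this line VIM stood at 1283 to 1740 CPM and AXL at 964 to 1280 CPM, but PLAU stood at 0.0965 to 0.711 CPM and S100A4 at 5.53 to 8.14 CPM. The summed level of 10 luminal epithelium markers was 412 to 542 CPM, nearly all of it from the keratins KRT8, at 115 to 197 CPM, and KRT18, at 258 to 336 CPM, while EPCAM and CDH1 of that list did not exceed 0.278 CPM. The summed level of 6 leukocyte markers, with LYZ at 0 in every library, was 0.965 to 2.69 CPM, and that of 7 fibroblast markers was 2.24 to 5.53 CPM. Several usually abundant genes also had few reads in the count table, ACTB with a mean of 8.09 CPM and the ER protein genes CALR with 13.0 CPM and PPIB with 6.76 CPM, against 1937 CPM for CANX, so a low level here, as for SIL1, cannot be read as low expression.

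With EMD37, 9 of the 10 genes rose at 12 h and the same count rose at 24 h, and none fell at either time. Over all genes tested, 5.27% were called higher and 3.43% lower at 12 h, and 19.6% higher and 21.1% lower at 24 h. The median log2 fold change of the 10 genes was 1.59 at 12 h and 1.12 at 24 h, beside -0.01 and -0.03 for all genes. Both EMD37 libraries lay above both vehicle libraries for 10 of 10 members at each time, which held for 26.5% of all genes at 12 h and 31.4% at 24 h. SIL1 was the member that did not pass the test. Together the 10 genes took 0.895% and 0.976% of counted reads after 12 h of EMD37, against 0.246% and 0.243% in the 12 h vehicle libraries. After 24 h they took 0.683% and 0.740% with EMD37, against 0.241% and 0.229% with vehicle.

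**Figure D2:**
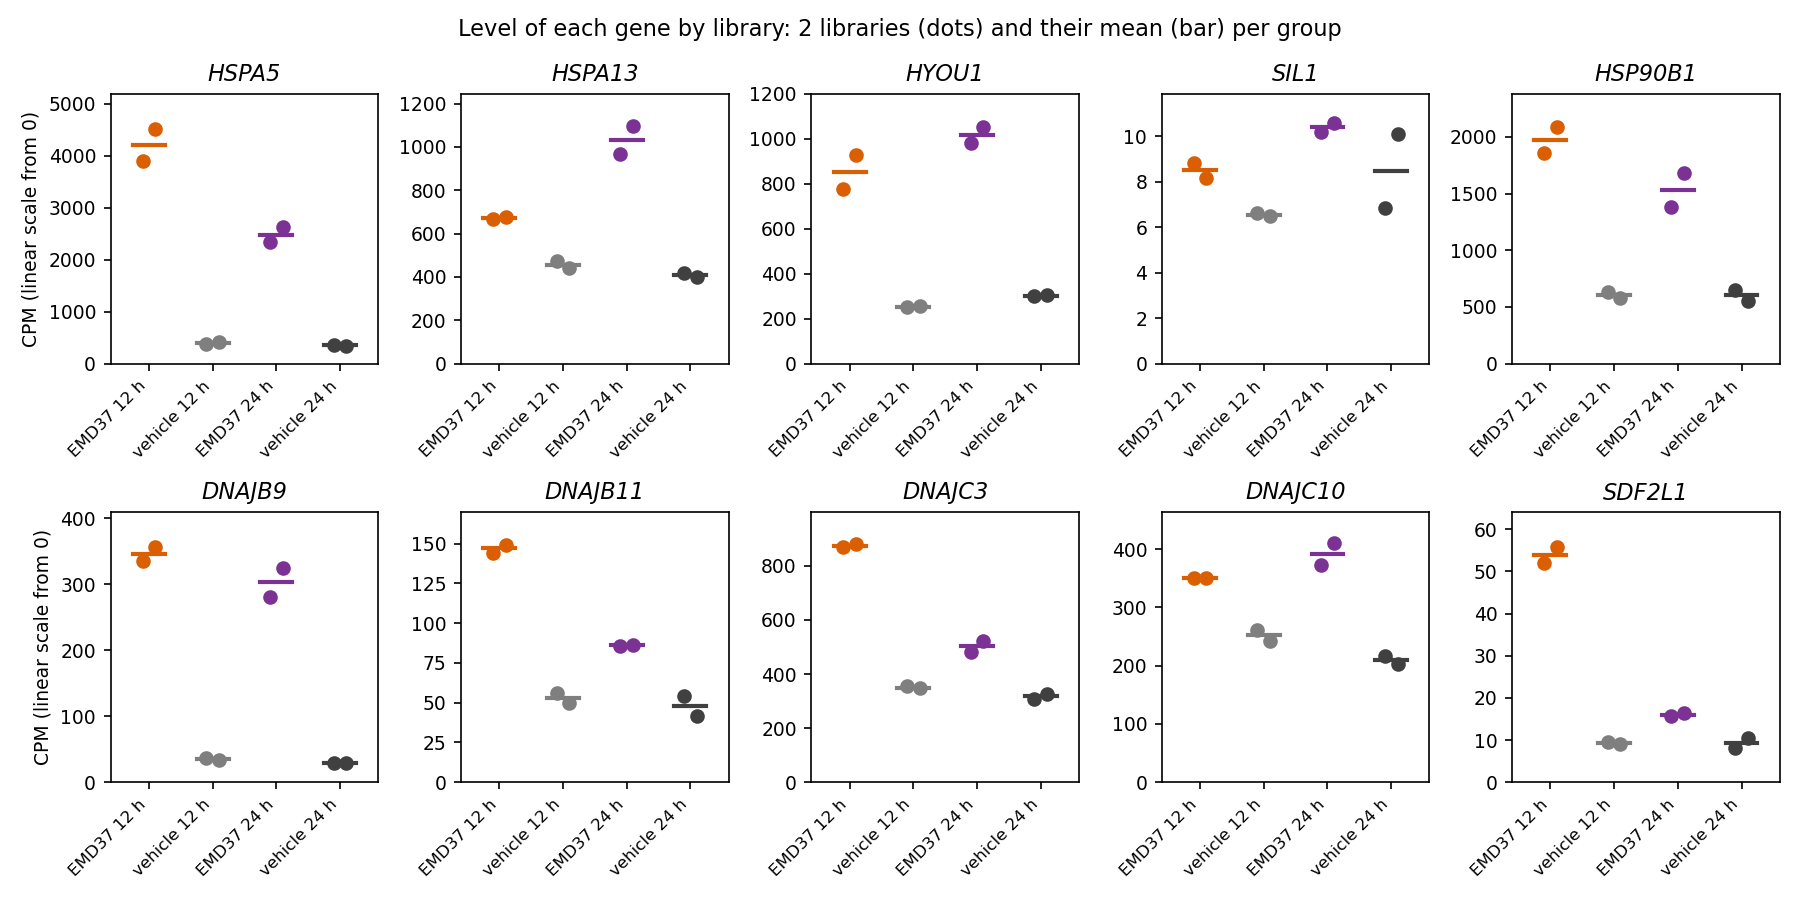
CPM of each member on a linear scale from 0, with 1 dot per library and a bar at the mean of the 2 libraries of a group. HSPA5 and DNAJB9 stand farthest above their vehicle groups at both times, SDF2L1 mainly at 12 h, and the SIL1 dots lie close together at 6.5 to 10.6 CPM.

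The promoter of HSPA5 itself holds the 1 exact ERSE match shown above. HSPA5 (ENSG00000044574, chromosome 9, 125234853 to 125241330 on hg38, minus strand) had the largest rise of the members at 12 h. Its level was 3903 and 4520 CPM in the EMD37 libraries at 12 h, against 372 and 416 CPM in vehicle. After 24 h it was 2343 and 2624 CPM with EMD37, against 365 and 342 CPM with vehicle. The groups were far apart at both times, and the treated level was lower at the later time while the vehicle level stayed near its 12 h value. The rise was 10.7-fold at 12 h (log2 3.42, standard error 0.10, adjusted p = 4.9e-13 in edgeR's quasi-likelihood test) and 7.02-fold at 24 h (log2 2.81, standard error 0.10, adjusted p = 2.73e-12). Among all tested genes the log2 rise ranked 10th at 12 h and 109th at 24 h. By reads within the count table, HSPA5 was the 6th gene in both EMD37 libraries at 12 h and the 11th in both at 24 h. Its places in the vehicle libraries were between 363 and 470. The 6912 genes known only from the normalized counts were not ranked, and held 8.26% to 11.66% of the counted and recovered reads of a library. In bulk RNA a rise in every cell and a larger share of cells with the transcript cannot be told apart. The pseudogene HSPA5P1 had 23 and 17 reads in the 12 h EMD37 libraries, beside 42359 and 45410 for HSPA5, and 4 and 1 reads in the 12 h vehicle libraries.

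HSPA13 (ENSG00000155304, chromosome 21, 14371115 to 14383484, minus strand), the other ER HSP70, rose less, and more at 24 h than at 12 h. At 12 h its level was 665 and 676 CPM with EMD37, against 474 and 439 CPM with vehicle. The 24 h libraries had 968 and 1098 CPM with EMD37, against 419 and 401 CPM with vehicle. The groups did not overlap at either time. Its rise was 1.47-fold at 12 h (log2 0.55, standard error 0.08, edgeR adjusted p = 0.000213) and 2.52-fold at 24 h (log2 1.33, standard error 0.08, adjusted p = 2.16e-09).

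Of the 2 exchange factors, HYOU1 passed the test at both times and SIL1 at neither. HYOU1 (ENSG00000149428, chromosome 11, 119044189 to 119057202, minus strand), a large HSP70-like protein that releases ADP from BiP and also holds substrates, had 777 and 928 CPM at 12 h with EMD37, against 254 and 255 CPM with vehicle. After 24 h HYOU1 had 983 and 1052 CPM with EMD37, against 299 and 306 CPM with vehicle. Its rise was 3.35-fold at 12 h (log2 1.75, standard error 0.09, edgeR adjusted p = 6.83e-10) and 3.36-fold at 24 h (log2 1.75, standard error 0.09, adjusted p = 2.06e-10). The letters of its 2 ERSE-II matches are those printed above. Of its exonic bases, 8.7% are shared with a gene on the opposite strand, and the library kit does not mark strand, so reads of the pair cannot be told apart there.

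SIL1 (ENSG00000120725, chromosome 5, 138946720 to 139293557, minus strand), the smaller exchange factor, whose loss causes Marinesco-Sjögren syndrome, had 8.85 and 8.16 CPM at 12 h with EMD37, against 6.61 and 6.50 CPM with vehicle. After 24 h SIL1 had 10.2 and 10.6 CPM with EMD37, against 6.85 and 10.1 CPM with vehicle, so that the 24 h groups nearly touched. The log2 difference was 0.38 at 12 h (95% interval -0.07 to 0.82, edgeR adjusted p = 0.308) and 0.31 at 24 h (95% interval -0.12 to 0.73, adjusted p = 0.24). SIL1 had 65 to 110 reads per library, the fewest of the members. Of SIL1 exonic bases, 9.3% are shared with genes on the opposite strand, MATR3 among them, and reads there cannot be told apart. The intervals of HYOU1 began at 1.56 at both times, above the upper ends of those of SIL1. Leaving out vehicle 24 h library B, where SIL1 was highest of the vehicle libraries, gave a log2 difference of 0.61 at 24 h (adjusted p = 0.0309, range over all alternatives 0.0309 to 0.83), and leaving out vehicle 24 h library A gave 0.07 (adjusted p = 0.83).

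HSP90B1 (ENSG00000166598, chromosome 12, 103930107 to 103953645, plus strand), which encodes GRP94 and folds integrins and Toll-like receptors among other clients, is the gene with an ERSE match on each strand. At 12 h its level was 1862 and 2090 CPM with EMD37, against 630 and 581 CPM with vehicle. The later libraries had 1386 and 1679 CPM with EMD37, against 654 and 553 CPM with vehicle. It rose 3.27-fold at 12 h (log2 1.71, standard error 0.11, edgeR adjusted p = 9.14e-09) and 2.54-fold at 24 h (log2 1.34, standard error 0.10, adjusted p = 3.99e-08). Every treated library lay above every vehicle library. Other genes share 7.6% of the exonic bases of HSP90B1.

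Of the 4 J protein genes, DNAJB9 had the largest rise at both times. DNAJB9 (ENSG00000128590, chromosome 7, 108569568 to 108574850, plus strand) encodes ERdj4, a known target of XBP1 that also brings BiP to IRE1 and holds that sensor back. Its level was 336 and 356 CPM at 12 h with EMD37, against 36.4 and 32.9 CPM with vehicle. At 24 h DNAJB9 had 280 and 325 CPM with EMD37, against 28.7 and 29.7 CPM with vehicle. The rise was 10.0-fold at 12 h (log2 3.32, standard error 0.10, edgeR adjusted p = 3.63e-13) and 10.4-fold at 24 h (log2 3.38, standard error 0.10, adjusted p = 3.53e-13). At 12 h its 95% interval, 3.12 to 3.52, overlapped that of HSPA5, 3.20 to 3.63. Genes on the opposite strand share 6.5% of the exonic bases of DNAJB9.

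DNAJB11 (ENSG00000090520, chromosome 3, 186567403 to 186585800, plus strand) encodes ERdj3, a soluble J protein that binds substrates itself. It had 144 and 149 CPM at 12 h with EMD37, against 56.3 and 50.0 CPM with vehicle. The 24 h level was 85.4 and 86.5 CPM with EMD37, against 54.3 and 41.5 CPM with vehicle. The rise was 2.76-fold at 12 h (log2 1.47, standard error 0.11, edgeR adjusted p = 5.76e-08) and 1.79-fold at 24 h (log2 0.84, standard error 0.11, adjusted p = 1.27e-05). Of its exonic bases 23.2% are shared with other genes, most of them on the opposite strand, so part of its reads is uncertain.

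DNAJC3 (ENSG00000102580, chromosome 13, 95677139 to 95794989, plus strand) encodes p58IPK, a J protein of the ER lumen first described as an inhibitor of the kinases PKR and PERK. At 12 h its level was 870 and 880 CPM with EMD37, against 354 and 347 CPM with vehicle. At 24 h DNAJC3 had 481 and 523 CPM with EMD37, against 309 and 326 CPM with vehicle. The treated libraries stayed above vehicle at both times, but by less at 24 h. The rise was 2.50-fold at 12 h (log2 1.32, standard error 0.07, edgeR adjusted p = 3.44e-09) and 1.58-fold at 24 h (log2 0.66, standard error 0.07, adjusted p = 2.79e-06).

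DNAJC10 (ENSG00000077232, chromosome 2, 182716041 to 182794464, plus strand) encodes ERdj5, a J protein with thioredoxin domains that reduces disulphides of misfolded proteins. It had 350 and 351 CPM at 12 h with EMD37, against 261 and 243 CPM with vehicle. At 24 h DNAJC10 had 373 and 411 CPM with EMD37, against 216 and 202 CPM with vehicle. Among the 9 genes that rose, its rise was the smallest at 12 h, 1.39-fold (log2 0.48, standard error 0.08, edgeR adjusted p = 0.000643). At 24 h it was 1.88-fold (log2 0.91, standard error 0.08, adjusted p = 1.28e-07), above those of DNAJB11, DNAJC3 and SDF2L1 in value.

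SDF2L1 (ENSG00000128228, chromosome 22, 21642261 to 21644298, plus strand), the partner of ER J proteins, rose far more at 12 h than at 24 h. At 12 h its level was 52.0 and 55.9 CPM with EMD37, against 9.65 and 9.06 CPM with vehicle. At 24 h it was 15.7 and 16.3 CPM with EMD37, against 8.14 and 10.6 CPM with vehicle. The rise was 5.77-fold at 12 h (log2 2.53, standard error 0.14, edgeR adjusted p = 3.54e-09) and 1.72-fold at 24 h (log2 0.79, standard error 0.16, adjusted p = 0.000857). It rests on 88 to 564 reads per library. The calls of all 9 genes at 12 h and at 24 h held in each of the 14 alternative settings or left-out libraries tried.

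**Figure D3:**
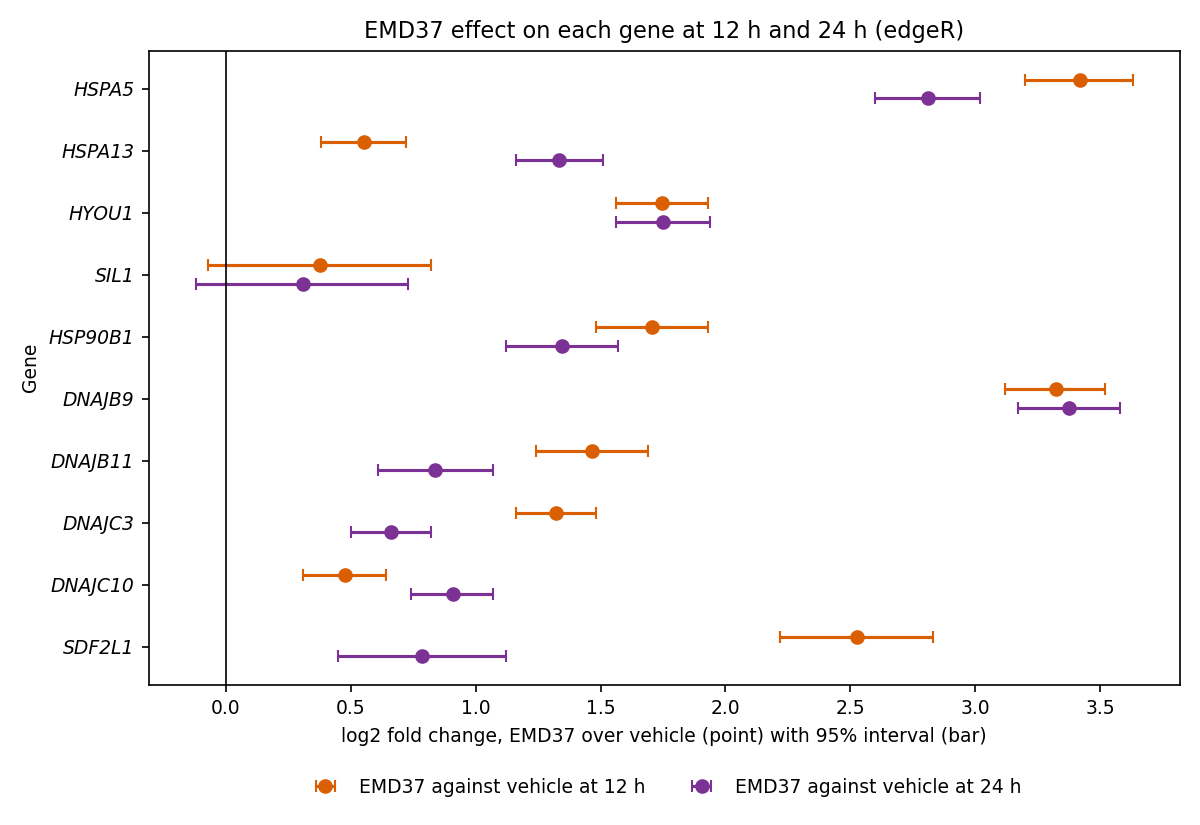
Log2 fold change of EMD37 over vehicle for each member (points) with its 95% interval (bars) at 12 h (orange) and 24 h (purple), from edgeR. The SIL1 intervals include 0 at both times, the HYOU1 and DNAJB9 points nearly coincide, and SDF2L1 has the widest gap between the times, 2.53 at 12 h and 0.79 at 24 h.

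The size of the EMD37 effect differed between the times for 6 of the 10 genes, tested as the difference of the effects, 24 h minus 12 h. It was larger at 24 h for 2 and smaller for 4, where 7.96% of all genes were called larger and 7.94% smaller. SDF2L1 lost most, with a log2 difference of -1.74 (standard error 0.22, edgeR adjusted p = 5.07e-05). DNAJC3 (-0.66, standard error 0.11, adjusted p = 0.000469), DNAJB11 (-0.63, standard error 0.15, adjusted p = 0.00971) and HSPA5 (-0.61, standard error 0.13, adjusted p = 0.00522) also had smaller effects at 24 h. HSPA13 (0.78, standard error 0.11, adjusted p = 0.000202) and DNAJC10 (0.43, standard error 0.11, adjusted p = 0.0129) had larger ones. The 95% interval of the difference was -0.25 to 0.26 for HYOU1, -0.23 to 0.34 for DNAJB9, -0.67 to -0.05 for HSP90B1 (adjusted p = 0.105) and -0.68 to 0.54 for SIL1, none of which passed the test.

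The calls for HSPA13, DNAJC3 and SDF2L1 held in all 13 alternatives to this test. That for HSPA5 was lost without EMD37 12 h library B (adjusted p = 0.0688) and without vehicle 12 h library A (0.0542), with a range of 8.65e-06 to 0.0688 over the alternatives. That for DNAJB11 was lost without EMD37 12 h library B (0.0747), vehicle 12 h library B (0.0767) or vehicle 24 h library A (0.054), with a range of 2.33e-06 to 0.0767, and without vehicle 24 h library A the DNAJB11 difference itself was -0.39. That for DNAJC10 was lost without either EMD37 12 h library (0.0635 without A, 0.0746 without B), vehicle 12 h library A (0.0902) or EMD37 24 h library B (0.0686), with a range of 0.00121 to 0.0902.

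Among treated cells alone, 24 h against 12 h, 2 members rose and 5 fell, beside 15.5% of all genes higher and 15.7% lower. These libraries also enter the difference of effects, so the values stand beside it and do not add to it. The log2 change was -1.75 for SDF2L1 (edgeR adjusted p = 9.41e-08), -0.80 for DNAJC3 (6.37e-07), -0.77 for DNAJB11 (2.75e-05), -0.76 for HSPA5 (1.22e-05) and -0.37 for HSP90B1 (0.0119). It was 0.62 for HSPA13 (2.02e-05) and 0.26 for HYOU1 (0.0301), and 0.29 for SIL1, -0.19 for DNAJB9 and 0.16 for DNAJC10 did not pass the test. The HYOU1 call was lost without EMD37 12 h library A (log2 0.13, adjusted p = 0.387) or EMD37 24 h library B (log2 0.20, adjusted p = 0.181, range over alternatives 0.00337 to 0.387), and without EMD37 12 h library B the change was 0.40. The HSP90B1 call was lost without EMD37 12 h library B (log2 -0.27, adjusted p = 0.202) or EMD37 24 h library A (log2 -0.22, adjusted p = 0.233, range 0.000119 to 0.233). DNAJB9 was called lower without EMD37 24 h library B (log2 -0.305, adjusted p = 0.0313).

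In vehicle cells, 24 h against 12 h, edgeR called 0 of the 10 genes, where 2.75% of all genes were higher and 3.25% lower. The median log2 change of the 10 was -0.14, beside 0.01 for all genes. At an unadjusted p under 0.05 there were 3 of the 10, beside 3436 of the 14850 genes tested. These 3 members were HYOU1 with a log2 change of 0.25, DNAJB9 with -0.24 and DNAJC10 with -0.27. DESeq2 called 1, DNAJC10 (log2 -0.29, adjusted p = 0.0387), for which edgeR gave an adjusted p of 0.0508.

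Because HSPA5 rose so far, its cochaperones were compared with it within each library, as reads of the gene per 100 reads of HSPA5. For DNAJB9 this was 8.61 and 7.87 at 12 h with EMD37, against 9.77 and 7.92 with vehicle, so the groups overlapped. At 24 h it was 12.0 and 12.4 with EMD37, against 7.85 and 8.70 with vehicle, above vehicle in both libraries. For HYOU1 it was 19.9 and 20.5 at 12 h with EMD37, against 68.1 and 61.3 with vehicle. At 24 h it was 41.9 and 40.1 for HYOU1 with EMD37, against 81.8 and 89.4 with vehicle. The treated libraries thus held fewer HYOU1 reads for each HSPA5 read at both times. SIL1 had the lowest ratios, 0.227 and 0.181 at 12 h with EMD37, against 1.77 and 1.56 with vehicle. For DNAJC3 the ratio was 22.3 and 19.5 at 12 h with EMD37, against 95.2 and 83.4 with vehicle. It was 20.5 and 19.9 for DNAJC3 at 24 h with EMD37, against 84.5 and 95.4 with vehicle, close to the values at 12 h.

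The mean of the 12 h and 24 h differences in log2 ratio, EMD37 minus vehicle, was -2.76 for SIL1, -2.42 for DNAJC10, -2.17 for HSPA13, -2.12 for DNAJC3, -1.95 for DNAJB11, -1.59 for HSP90B1, -1.46 for SDF2L1 and -1.37 for HYOU1. For these 8 of the 9 genes all treated libraries lay below all vehicle libraries of the same time. That was also so for 98.3% of the 14849 other tested genes, so the 8 genes share it with nearly all genes. DNAJB9 was the exception, with a mean difference of 0.23. The exact permutation test, two-sided with labels permuted within each time over 36 arrangements, gave p = 0.278 for DNAJB9 and 0.0556, the smallest p that the design allows, for each of the other 8 of the 9 ratios tested.

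**Figure D4:**
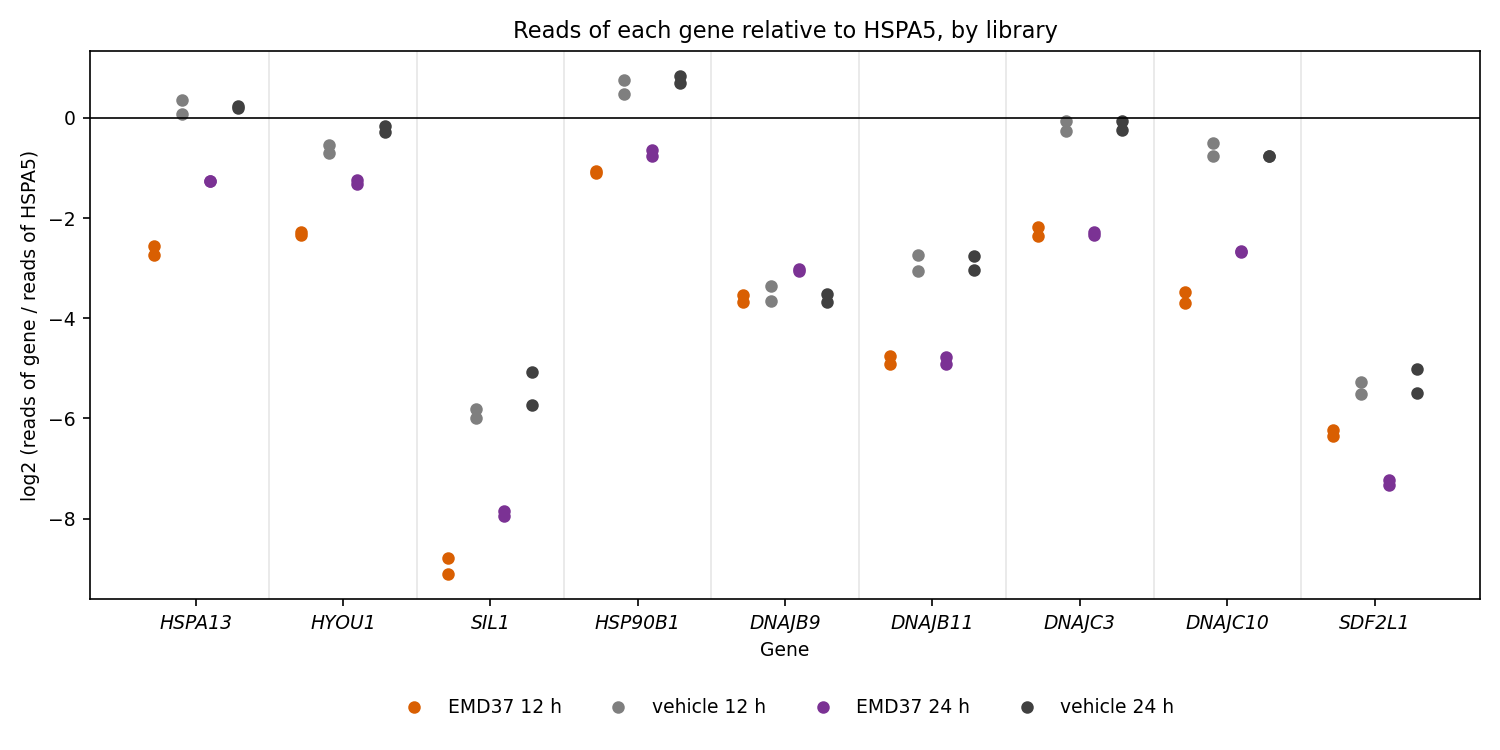
Log2 of the reads of each gene over the reads of HSPA5 in the same library, with 1 dot per library and EMD37 left of its vehicle at each time. The treated dots lie below vehicle for every gene except DNAJB9, whose 12 h groups overlap and whose 24 h EMD37 dots lie above vehicle.

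To compare levels between genes, CPM were divided by the length of the union of exons in kilobases (CPM per kb). Some usually abundant genes, such as ACTB and CALR, had few reads in the count table, for a reason not given. The order below is therefore one of counted reads per length and cannot be read as an order of expression. In vehicle cells the order began with HSP90B1, at 129 ± 7.44 CPM per kb at 12 h (SD, n = 2), then HSPA13 at 109 ± 5.88 and HSPA5 at 101 ± 7.88, and the libraries of HSPA13 and HSPA5 overlapped. At 24 h vehicle had the same 3 in front, with 128 ± 15.1 for HSP90B1, 97.7 ± 3.08 for HSPA13 and 90.5 ± 4.24 for HSPA5. With EMD37 HSPA5 was first, at 1078 ± 111 CPM per kb at 12 h and 636 ± 50.7 at 24 h, ahead of HSP90B1 with 421 ± 34.4 and 326 ± 44.1. HSPA13 was next with EMD37, at 160 ± 1.86 at 12 h and 246 ± 21.9 at 24 h, and DNAJC3 stood close behind it at 12 h with 157 ± 1.24.

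In the lower part of the order, levels per kb at 12 h with EMD37 were 122 ± 4.97 for DNAJB9, 111 ± 13.9 for HYOU1, 49.1 ± 2.55 for SDF2L1, 25.6 ± 0.673 for DNAJB11, 16.1 ± 0.0435 for DNAJC10 and 2.12 ± 0.121 for SIL1, with DNAJB9 and HYOU1 overlapping between libraries. In 12 h vehicle cells DNAJC3 had 62.7 ± 0.968 and HYOU1 33.0 ± 0.094, above DNAJB9 with 12.2 ± 0.861, DNAJC10 with 11.5 ± 0.569, DNAJB11 with 9.28 ± 0.774 and SDF2L1 with 8.52 ± 0.379. Neighbours among these last 4 overlapped, except DNAJC10 and DNAJB11. SIL1 was last in all groups. DNAJC10 was divided by 21835 bp of exons, against 1099 to 7694 bp for the other members, so its place depends on that length. Its longest coding transcript, 20129 bp, is nearly as long, and the length used in these cells was not tested. With the longest coding transcript in place of the exon union, HYOU1 (188) moved ahead of HSPA13 (168) and DNAJC3 (157) at 12 h with EMD37. HSPA5 and HSP90B1 kept their places. In 12 h vehicle cells DNAJB11 (22.2) then stood above DNAJB9 (12.8) and DNAJC10 (12.5), the reverse of their order by exon union. DNAJB11 has 5731 bp of exons but a longest coding transcript of 2398 bp, so its place depends on the length chosen.

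As a share of the summed CPM per kb of the 10 genes, HSPA5 made up 50.3% ± 1.19 at 12 h with EMD37, against 21.1% ± 2.04 with vehicle (SD, n = 2). At 24 h its share was 40.1% ± 0.372 with EMD37, against 20.0% ± 0.0836 with vehicle. DNAJB9 also took a larger share, 5.71% ± 0.224 at 12 h with EMD37, against 2.56% ± 0.133 with vehicle, and 6.72% ± 0.108 at 24 h with EMD37, against 2.28% ± 0.155 with vehicle. The share of HSPA13 was 7.49% ± 0.511 at 12 h with EMD37, against 22.8% ± 0.806 with vehicle, although its own level rose. The 4 J protein genes together had 31.6 and 28.1 CPM per kb for each 100 of HSPA5 at 12 h with EMD37, against 103 and 87.9 with vehicle. At 24 h they had 36.2 and 36.1 with EMD37, against 90.6 and 97.5 with vehicle. DNAJC10 entered these sums divided by its 21835 bp of exons. Shares are parts of the same sum, so a larger HSPA5 share leaves less for the other genes. Reads relative to HSPA5 were lower in all treated libraries for 98.3% of the 14849 other tested genes. A lower ratio to HSPA5 is thus no trait of the J protein genes. The limit on comparing levels between genes holds for these shares and ratios too.

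**Figure D5:**
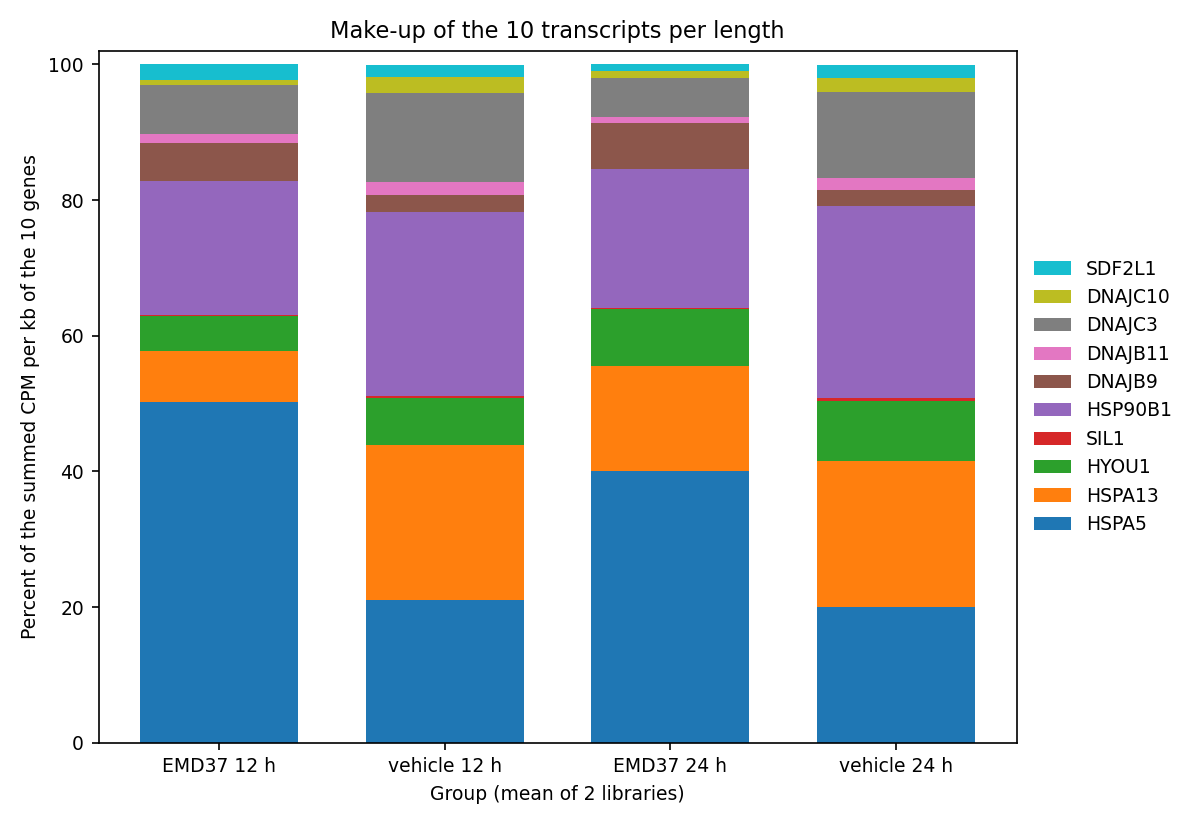
Percent of the summed CPM per kb of the 10 genes taken by each gene, as stacked bars from 0 to 100 for the mean of the 2 libraries of each group. HSPA5 at the foot of the bars takes 50.3% and 40.1% in the EMD37 bars, against 21.1% and 20.0% in the vehicle bars.

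Likeness of pattern was measured as the root mean square difference of gene-centred log2 CPM over the 8 libraries, among 10409 genes with a mean of at least 5 CPM. The nearest genes to HSPA5 outside the 10 were CXCL3 (0.214), DDIT3 (0.215), HSPA1B (0.388), ASNS (0.437) and SESN2 (0.438). DNAJB9 was the nearest member, at 0.251, and the third among all genes. HYOU1 (0.789), HSP90B1 (0.812) and SDF2L1 (0.821) came 34th, 37th and 40th, and SIL1 came 1521st. Between other members the closest pairs were DNAJB11 and DNAJC3 (0.152) and HSPA13 and DNAJC10 (0.21). These distances describe 8 libraries of 4 groups and carry no test.

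Genes of further partners of BiP and of J proteins at the ER were read from the same fit. The list holds DNAJB2, DNAJB12, DNAJB14 and DNAJC18, whose J domains face the cytosol and work with the HSP70 there, not with BiP. Of 13 tested genes, 3 rose and none fell at 12 h, where 5.27% of all genes rose and 3.43% fell, and 8 rose and 1 fell at 24 h, where 19.6% rose and 21.1% fell. Their median log2 changes were 0.23 at 12 h and 0.47 at 24 h, beside -0.01 and -0.03 for all genes. MANF, a soluble ER protein that binds BiP and can be secreted, had 217 and 222 CPM at 12 h with EMD37, against 65.6 and 62.4 CPM with vehicle (log2 1.78, standard error 0.08, edgeR adjusted p = 1.01e-10), and rose by log2 0.47 at 24 h. FICD, the enzyme that attaches AMP to BiP and removes it, rose by log2 1.64 at 12 h (standard error 0.11, adjusted p = 4.13e-08) and 1.01 at 24 h. SEC63, the J protein of the translocation channel, rose by 0.38 at 12 h (adjusted p = 0.012) and 0.56 at 24 h. The 12 h call of SEC63 was lost without any 1 of the 4 libraries of that time (adjusted p of 0.0801 to 0.139). At 24 h TMEM132A, named for binding BiP, rose by log2 1.26 and DNAJB2 by 1.18, and the log2 differences at 12 h were 0.42 for TMEM132A (adjusted p = 0.214) and 0.33 for DNAJB2 (adjusted p = 0.0683). At 12 h TMEM132A and DNAJB2 were called with only the groups compared (adjusted p = 0.0102 and 0.0139) and without either 24 h vehicle library (0.0115 to 0.0201). SDF2, the paralogue of SDF2L1, fell at 24 h, with 34.1 and 36.9 CPM with EMD37, against 51.8 and 48.8 CPM with vehicle (log2 -0.50, standard error 0.10, adjusted p = 0.000974). Using only the 12 h groups in the fit gave 7 genes of this list higher at 12 h, and leaving out vehicle 24 h library A or B gave 6.

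Of 12 tested genes for ER stress sensors and factors of the BiP promoter, 4 rose and none fell at 12 h, where 5.27% of all genes rose and 3.43% fell, and 7 rose and 2 fell at 24 h, where 19.6% rose and 21.1% fell. Their median log2 changes were 0.09 at 12 h and 0.29 at 24 h, beside -0.01 and -0.03 for all genes. XBP1, the factor activated by IRE1 splicing, had 369 and 393 CPM at 12 h with EMD37, against 172 and 157 CPM with vehicle (log2 1.22, standard error 0.08, edgeR adjusted p = 3.8e-08), and rose by log2 1.24 at 24 h. EIF2AK3, the sensor PERK, rose by 1.55 at 12 h and 1.14 at 24 h, ERN1, the sensor IRE1, by 0.74 and 1.08, and ATF4, translated under PERK signalling, by 0.72 and 1.09. ATF6, the third sensor, showed a log2 difference of 0.23 at 12 h (adjusted p = 0.119) and rose by 0.28 at 24 h (adjusted p = 0.0197). At 24 h MBTPS2, the protease that makes the last cut of ATF6, fell by 0.69 on the log2 scale, and NFYB, a subunit of the CCAAT-binding factor, fell by 0.54. Counts of reads say nothing of XBP1 splicing, ATF6 cleavage or kinase activity.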

How the data were processed

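RNA of 8 MDA-MB-231 libraries was prepared with the TruSeq V2 RNA-Seq kit, per the labels' protocols, and that kit does not mark strand. The submitters' processing notes name FastQC, STAR, DESeq2 and build hg38, and what each tool did, its version and how reads were assigned to genes are not given in the sources used here. Whole-number counts per gene were deposited by the authors, and also normalized counts (signal) equal to those counts over 1 size factor for each library. The count table as read here ended part-way through the Ensembl IDs, at 36715 genes, 30765 with reads. The normalized table held 27682 genes, 6912 of them outside that copy, whose reads (55296 of 55296 values whole within 0.01) entered an alternative only. Fold changes of the 10 genes differed by at most 0.028 (log2) between the tables.

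IDs were named with GENCODE 29 on GRCh38, and promoters came from RefSeq. In edgeR 4.0.16 under R 4.3.3, filterByExpr (minimum count 10) kept 14850 genes, TMM factors were 0.948 to 1.03, and 1 mean per group was fitted with 4 residual degrees of freedom and a coefficient of biological variation of 0.0733. Genes were called by the quasi-likelihood test with Benjamini-Hochberg adjustment below 0.05. The fitting script was tested on simulated data. Alternatives were DESeq2 1.42.0, its size factors, no filter, only the groups compared, a replicate block, recovered genes, and each library left out. Library size was 8994977 to 11437813 counted reads, and intervals on low counts reflect spread between libraries and counting error.

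The 10 genes, the other gene lists and the tests were chosen with earlier results of these data known. All 10 genes were described. From the other lists, up to 4 genes with the smallest p at each time were named, besides HSPA8, HSPA9 and HSP90AB1, and genes named in counts of 5 or fewer, or for comparison with these, were chosen after their values were seen. ACTB, CALR, PPIB and CANX were likewise chosen after their values were seen. The labels did not say whether libraries of the same letter belong together, and the main fit did not pair them. Deviations of same-lettered libraries from their group means correlated at -0.16 to 0.16 between groups, which does not settle the question.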

Additional observations from a re-analysis of the deposited data

Results flagged for a closer look

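For 6 of the 10 genes the EMD37 effect differed between 12 h and 24 h in edgeR's quasi-likelihood test of the difference. Over all genes, 7.96% were called larger and 7.94% smaller at 24 h. The calls for HSPA5, DNAJB11 and DNAJC10 did not hold in every alternative, as given above. Differences are given as log2 at 24 h minus log2 at 12 h. The difference was -1.74 for SDF2L1, -0.66 for DNAJC3, -0.63 for DNAJB11 and -0.61 for HSPA5, whose effects were smaller at 24 h. It was 0.78 for HSPA13 and 0.43 for DNAJC10, whose effects were larger at 24 h. The summed level of the mesenchymal markers was 5839 to 6109 CPM after 24 h of EMD37, against 7042 to 7471 CPM in 24 h vehicle. At 12 h it was 6583 to 6710 CPM with EMD37, against 7038 to 7124 CPM with vehicle. The markers did not move together. Of 7 tested at 24 h, 3 were called lower and 1 higher, where 21.1% of all genes were lower and 19.6% higher. LAMB3 rose by log2 0.84, while CAV1 averaged 1167 CPM with EMD37, against 1929 CPM with vehicle. The part of these markers in the differences of effect was not tested.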

How the results depend on the processing

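The 9 calls at 12 h and the 9 at 24 h held in all 14 alternatives, and the mean log2 differences in ratio to HSPA5 over both times kept their direction under a pseudocount and each left-out library. Counts over all genes moved more. With only the groups compared, 2503 genes were called at 12 h (1292 as reported) and 125 between vehicle times (890 as reported). Leaving out 1 library gave 493 to 2229 genes at 12 h, 1190 to 3236 for the difference of effects (2361 as reported), 2832 to 5755 for EMD37 at 24 h against 12 h (4624 as reported) and 89 to 2493 for vehicle. The lowest of these were without EMD37 12 h library B (12 h and both later counts) and without vehicle 12 h library A (vehicle). Members with a larger effect at 24 h numbered 1 to 2 and with a smaller one 2 to 5 without 1 library. Members higher in EMD37 at 24 h against 12 h numbered 1 to 2, and members lower in vehicle at 24 h 0 to 2; DNAJC10 alone was called there with no filter (1, log2 -0.285, adjusted p = 0.0442) and with DESeq2 (1). HSP90B1 gained a smaller effect at 24 h with no filter (adjusted p = 0.0367) and without EMD37 24 h library B (0.0422) or vehicle 24 h library B (0.00286, range over alternatives 0.00286 to 0.425). Uncalled values crossed 0 on leaving out 1 library: the difference of effects ran from -0.123 to 0.151 for HYOU1, -0.060 to 0.174 for DNAJB9 and -0.305 to 0.227 for SIL1, and the vehicle change from -0.145 to 0.129 for HSP90B1 (0.001 with recovered genes and with only the groups compared), -0.179 to 0.162 for SDF2L1 (0.000 with only the groups compared) and -0.370 to 0.052 for DNAJB11. By longest coding transcript, the HSPA5 share was 42.1% at 12 h with EMD37 and 16.6% with vehicle, and 32.8% at 24 h with EMD37 and 15.5% with vehicle. The replicate block was fitted although the labels do not say what libraries of the same letter share. It changed no count of members, and gave 1097 genes for 12 h and 5895 for 24 h. It gave 2139 for the difference of effects, 4405 for EMD37 over time and 680 for vehicle over time. Proteins of the 10 genes were not used here. SIL1 had the fewest reads of the members, 65 to 110 per library. The cause of the moves was not tested.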

Other observations

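The HSP70 and HSP90 systems of cytosol and mitochondria were read from the same fit. Of 25 tested genes, 8 rose and none fell at 12 h, where 5.27% of all genes rose and 3.43% fell, and 14 rose and 2 fell at 24 h, where 19.6% rose and 21.1% fell. Their median log2 change was 0.23 at 12 h and 0.56 at 24 h. The inducible HSP70 genes led, with log2 rises at 12 h and 24 h of 4.83 and 5.45 for HSPA6, 3.78 and 4.21 for HSPA1A and 3.32 and 3.83 for HSPA1B. HSPA1A and HSPA1B are nearly identical, so their reads may be split between them. DNAJB1, the J protein that serves the inducible HSP70, rose by 1.98 and 1.74.

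The constitutive HSP70 genes HSPA8 and HSPA9 and the constitutive HSP90 gene HSP90AB1 moved little beside HSPA5. HSPA8, the constitutive HSP70 of the cytosol, averaged 11923 ± 1344 CPM at 12 h with EMD37, against 9747 ± 1014 CPM with vehicle (SD, n = 2, log2 0.29, edgeR adjusted p = 0.139). That difference was called with no filter (adjusted p = 0.00435), with only the groups compared (0.00214) and without vehicle 24 h library A (0.00897) or B (0.00856). At 24 h it averaged 11004 ± 1062 CPM with EMD37, against 7190 ± 981 CPM with vehicle, and rose by log2 0.61 (edgeR adjusted p = 0.000435). HSP90AB1, the constitutive HSP90 of the cytosol, showed a log2 difference of 0.24 at 12 h (adjusted p = 0.127) and rose by 0.55 at 24 h. The 12 h difference was called with only the groups compared (adjusted p = 0.00647) and without vehicle 24 h library A (0.0265) or B (0.0258). HSPA9, the mitochondrial HSP70, rose by 0.32 at 12 h and 0.81 at 24 h, and its 12 h call was lost without any 1 of the 4 libraries of that time (adjusted p of 0.0881 to 0.246).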
